A study of Mus musculus with 8 samples.

Results

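The genes described here are those of mouse chromosome 14 in clones of RAW264, a mouse macrophage-like cell line. Members were the probe sets of the Clariom S array (a short-oligonucleotide expression array with 1 probe set for most genes) whose identifier begins with TC14, without the probe set of Gpr137c, and with a mean log2 signal of at least 7 over the 8 arrays. This gave 322 members of 922 such probe sets, among 22206 probe sets in all. The members were chosen by the chromosome and the level, and the chromosome was selected on the WT1 signals themselves, which stood above those of the other clones in earlier results of these data. The level of WT1 is therefore given below as a description, without a test.

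RNA came from 2 Gpr137b-WT clones (WT1 and WT2) and 2 Gpr137b-KO clones (KO1 and KO2), in which the orphan G-protein-coupled receptor gene Gpr137b was knocked out. According to the study, both kinds of clones were established in the CRISPR/Cas9 experiment. Each clone was measured once after 48 h without interleukin-4 (IL-4) and once with IL-4, a cytokine that turns macrophages towards the M2 state. For IL-4 treatment the medium was changed to one deprived of serum and holding albumin, and the sources do not state the medium of the untreated cells, so an effect of IL-4 below may hold one of serum. A genotype was therefore 2 clones, a clone was 1 array in each treatment, and no value of a single clone has a replicate of its own. Where 4 values follow each other below, they are those of WT1, WT2, KO1 and KO2, in this order.

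Cells usually make RNA of a gene in rough proportion to the number of its DNA copies, which is called gene dosage. Copies of whole chromosomes or chromosome arms are often gained or lost when a cultured line is expanded from single cells, and all genes of that stretch then tend to shift together. A gene whose RNA is set by feedback or by a signal can depart from its neighbours, and such genes are said to escape dosage. For orientation, a ratio of 3 copies to 2 corresponds to 1.5-fold, or 0.58 on the log2 scale. DNA copy number was not measured here, so whether it differed between the clones was not tested. The chromosome carries genes of several macrophage functions, among them the protease gene Ctsb, the necroptosis kinase gene Ripk3 and a run of interferon-linked Phf11 genes.

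The promoters of 3 of these Phf11 genes are shown because WT1 was not above the other clones in them without IL-4, unlike in most of their neighbours (values below). They are the 100 bases before the start of each gene in RefSeq (GRCm38.p6, minus strand), at chr14:59297523-59297622 for Phf11a, at chr14:59341331-59341430 for Phf11b and at chr14:59365491-59365590 for Phf11d. Capitals mark the letters GAAANNGAAA, the core of the interferon-stimulated response element, which begin 29 bases before the start of Phf11a and 50 bases before that of Phf11b. They were not found in the 250 bases before the start of Phf11d, where the WT1 difference was the lowest of the 3, nor before that of Phf11c.
Phf11a: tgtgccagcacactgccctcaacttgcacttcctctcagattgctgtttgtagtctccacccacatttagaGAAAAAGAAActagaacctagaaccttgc
Phf11b: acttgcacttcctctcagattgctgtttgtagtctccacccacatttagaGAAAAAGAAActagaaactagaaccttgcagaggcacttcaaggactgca
Phf11d: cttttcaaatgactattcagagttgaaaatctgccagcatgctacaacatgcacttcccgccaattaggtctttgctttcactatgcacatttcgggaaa
The same letters, on either strand and in overlapping matches too, were found in the 250 bases before the start in 978 of 32851 promoters of the genome (2.98%). They were found in 12 of 304 promoters of 226 members (3.95%), and in 2 of 12 promoters of the interferon-linked members. The stretches of Phf11a and Phf11b share long runs of letters. Phf11 genes are close paralogs, so a probe set may read more than 1 of them.

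Array signals are log2 values of the deposited intensities. An array's background was the 95th percentile over 23 antigenomic probe sets, which match no mouse sequence. It lay between 6.64 and 6.78, and 306 members were above it on all 8 arrays and 16 on some. Mean levels of members ran from 7.00 to 18.32. In the annotation used here 282 members had a gene symbol and 40 were unnamed, and RefSeq placed each of the 282 on chromosome 14. Of 10 macrophage markers, 9 were measured, and these were above background on every array, between 9.07 and 18.95. The markers of T cells, B cells, fibroblasts and epithelium were above background on none. Just inside the level minimum lay Dcaf11 at 7.00, Phf11a at 7.02 and AY358078 at 7.03, and just outside it Cdkn3 at 6.97, Gm5797 at 6.96 and Ngly1 at 6.90.

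Genes of chromosome 14 were higher in WT1 than in the other clones, in both treatments. For each member the log2 value of a clone was set against the mean of the other 3 clones in the same treatment. In WT1 the median of these differences without IL-4 was 0.69 (1.61-fold, quartiles 0.39 and 1.00), and with IL-4 it was 0.61 (1.53-fold, quartiles 0.22 and 0.83). Over the 8821 probe sets of other chromosomes at the same level minimum it was 0.10 and 0.01. The spread between WT2, KO1 and KO2 was smaller, with a median SD over members of 0.22 without IL-4 and 0.24 with IL-4 (n = 3 clones). Signals of WT1 were above those of each other clone in both treatments for 213 members (66.1%), against 12.8% of the probe sets of other chromosomes. The shift of 0.10 off the chromosome in WT1 without IL-4 is part of the value there. With each array centred on the probe sets of other chromosomes, the median was 0.55.

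**Figure D1:**
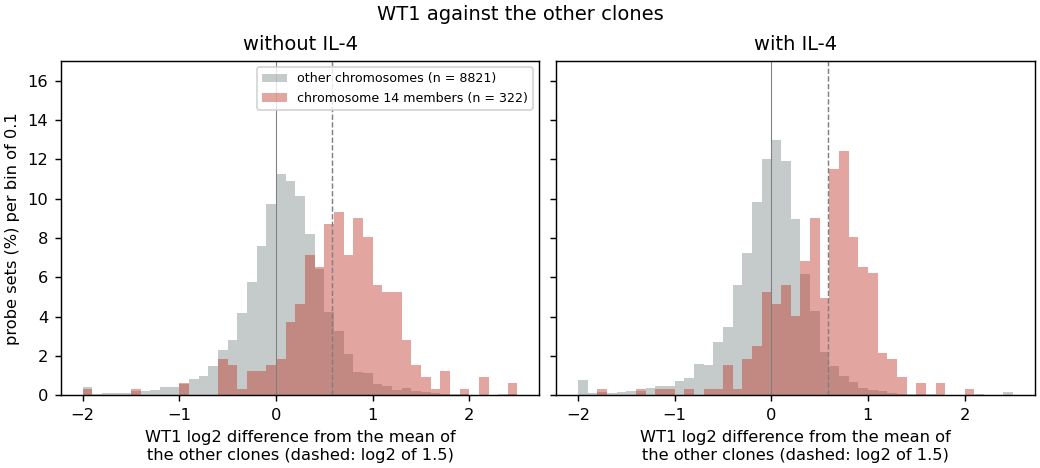
Share of probe sets (y axis, percent per bin of 0.1) by the log2 difference of WT1 from the mean of the other 3 clones (x axis), for the 322 chromosome 14 members and for 8821 probe sets of other chromosomes, without and with IL-4. The members are centred on 0.69 and 0.61, the other probe sets on 0.10 and 0.01, and values beyond the axis are counted in its end bins.

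Compared clone by clone, WT1 minus WT2 had a median of 0.71 over the members without IL-4, and of 0.52 with it. It was 0.72 and 0.60 for WT1 minus KO1, and 0.66 and 0.66 for WT1 minus KO2. The pairs that leave out WT1 had medians between −0.02 and 0.07. The medians of WT2 (−0.24 and −0.14), KO1 (−0.22 and −0.17) and KO2 (−0.19 and −0.23) against the other clones were below 0, and WT1 is part of the mean they were set against. The WT2 median without IL-4 depended on the scaling, at −0.13 after quantile normalization and −0.08 after centring. By chromosome, the 19 other chromosomes had WT1 medians from 0.03 (chromosome 1) to 0.15 (chromosome 3) without IL-4, and from −0.08 (chromosome 1) to 0.08 (chromosome 13) with IL-4. Of the other positive medians, the next largest were those of chromosome 12 in KO2 (0.20 and 0.13) and of chromosome 1 in WT2 (0.05 and 0.18). The lowest median off chromosome 14 was that of chromosome 19 in WT2 without IL-4, at −0.20.

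**Figure D2:**
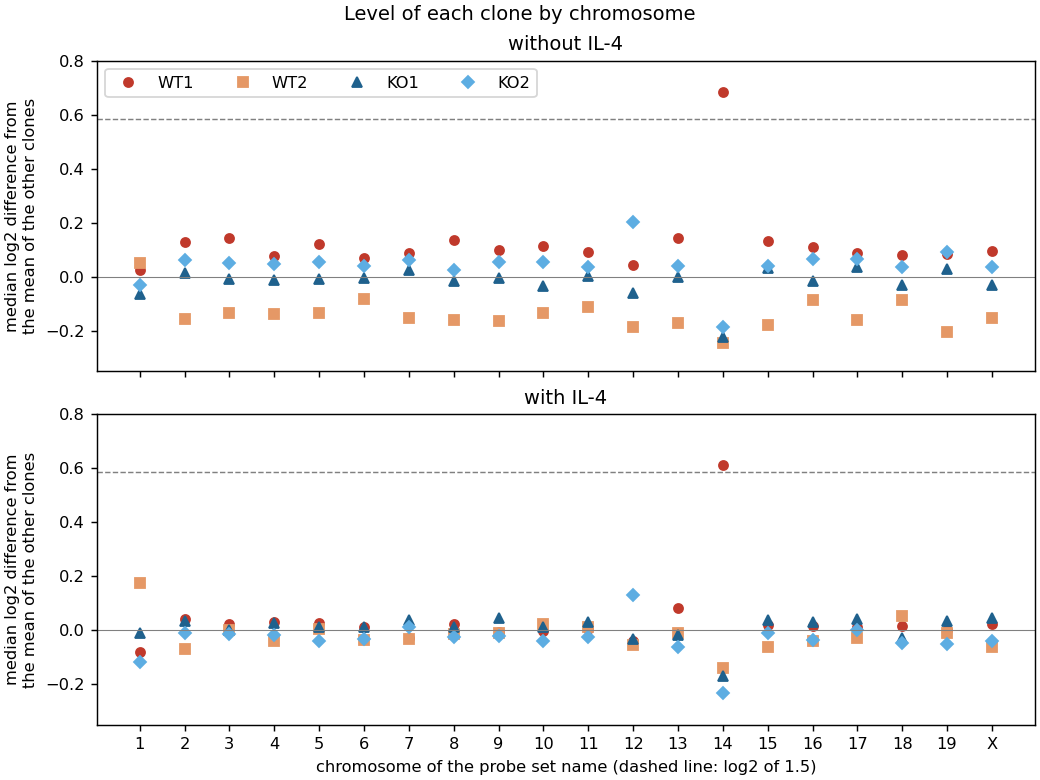
Median log2 difference of each clone from the mean of the other 3 clones (y axis) for each chromosome (x axis), over probe sets with a mean log2 signal of at least 7, without IL-4 above and with IL-4 below. WT1 on chromosome 14 lies at 0.69 and 0.61, above the dashed line at log2 of 1.5, while its medians on the other chromosomes lie between −0.08 and 0.15.

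Both WT clones entered the WT group, so the shift of WT1 carried into the comparison of genotypes. KO minus WT had a median of −0.33 over the members without IL-4, and of −0.34 with it, and 271 and 257 of the 322 members (84.2% and 79.8%) were lower in the mean of the KO clones, against 45.1% and 49.5% of the probe sets of other chromosomes. Without WT1 the medians were 0.02 and −0.06, and without WT2 they were −0.71 and −0.63. Over the probe sets of other chromosomes they were 0.11 and 0.01 without WT1, and −0.06 and −0.0006 without WT2.

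In the order of the chromosome the rise began after its first genes. The 282 placed members were sorted by their RefSeq start, and a split was sought. It was the one at which WT1 differences lay closest to the median of their own side, by summed absolute distance. By the mean of both treatments it fell between Ube2e1, a ubiquitin-conjugating enzyme gene, and Rtraf, a gene of RNA transcription and translation, and left 16 members before and 266 after. By the values with IL-4 alone it fell 1 member earlier, between Nkiras1 and Ube2e1. The split was set by these values, so its medians are a description. Before it the WT1 median was 0.18 in cells without IL-4 and 0.05 in those with it, and after it 0.78 and 0.66. Of the genes next to the split, Ube2e1 gave 10.72, 10.94, 11.12 and 10.74 without IL-4, and 11.49, 10.56, 11.10 and 10.94 with IL-4. WT1 was the lowest clone without IL-4 and the highest with it. Rtraf gave 14.70, 13.87, 14.31 and 14.13 without IL-4, and 14.88, 13.89, 14.27 and 14.10 with IL-4. WT1 was the highest clone in both treatments there.

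After the split the WT1 level stayed up to the end of the chromosome. In 8 segments of equal gene number the WT1 median lay between 0.54 and 0.87 without IL-4 and between 0.49 and 0.78 with IL-4. The first segment, from Gm5796 to Adk, holds the genes before the split, and its medians were 0.59 and 0.60. The last segment, from Mtrf1 to Tmtc4, had the highest medians, 0.87 and 0.78.

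WT2 had the lowest median of the clones at the start of the chromosome. Over the 16 members before the split its median was −0.46 in cells without IL-4 and −0.43 in those with it, and 12 and 10 of them were below 0. Over all members WT2 was above 0 in 28.3% and 36.6%, and off the chromosome in 37.0% and 49.1%, so the counts do not set these members apart from the others. Their WT2 differences ran from −2.60 to 0.23 without IL-4 and from −1.33 to 0.44 with it, the last in Nr1d2. Rpl15, a protein of the large ribosomal subunit, is one of the brightest members there. It gave 17.17, 16.67, 17.18 and 17.03 without IL-4, and 17.19, 16.70, 17.22 and 17.11 with IL-4. Both WT2 arrays thus lay below every other array, while WT1 lay among the KO clones. Pdhb, a subunit of pyruvate dehydrogenase, gave 13.21, 12.69, 13.02 and 13.20 without IL-4 and 13.18, 12.70, 13.22 and 12.95 with IL-4, again with WT2 lowest. Among members named for their low values, Pxk was at −0.70 and −0.65 in WT2, Abhd6 at −1.15 and −1.01, and the retinoic acid receptor gene Rarb at −2.60 and −1.33. The best split of WT2 by the same search lay between Dnajc9 and Anxa7, with 22 members before it. The WT2 median before the WT1 split without IL-4 depended on the scaling, at −0.27 after quantile normalization and −0.29 after centring, and −0.47 with IL-4 under both.

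**Figure D3:**
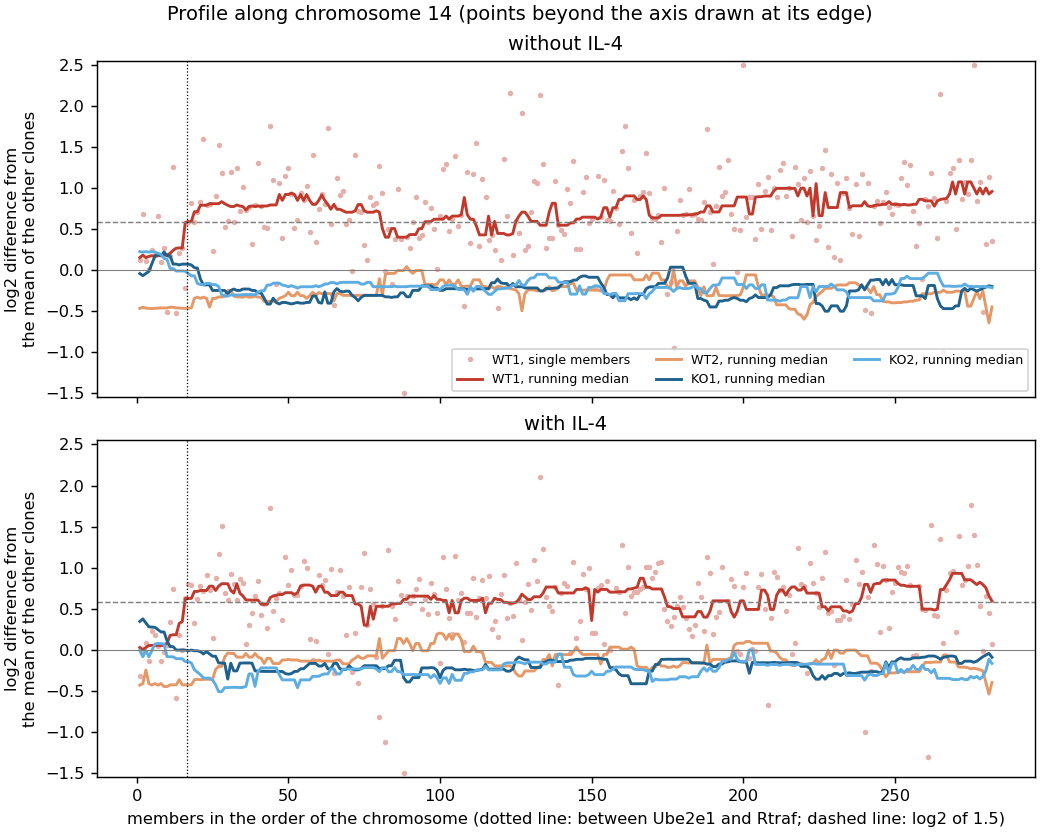
Log2 difference from the mean of the other 3 clones (y axis) for the 282 placed members in the order of the chromosome (x axis, rank), without IL-4 above and with IL-4 below. Lines are running medians over 15 members for each clone and points are single members in WT1. The WT1 line rises after the first 16 members (medians 0.18 and 0.05 before, 0.78 and 0.66 after), and the WT2 line lies below those of the other clones at the left end (−0.46 and −0.43).

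Most members followed the rise, and a minority did not. A member was called raised where WT1 was above the mean of the other clones by at least 0.29 in both treatments, a limit midway between 0 and log2 of 1.5, and not raised where it was under that in both. By this rule 212 members were raised (65.8%, against 8.55% off the chromosome), and 24 of these exceeded 2-fold in both treatments (7.45%, against 0.385%). Another 37 were not raised (11.5%, against 60.9%), and among them 3 were lower by at least 0.29 in both (0.932%, against 6.87%). The remaining 73 differed between the treatments (22.7%, against 30.6%). These counts use the values that chose the chromosome and are read as a description. With the limit at log2 of 1.5, 128 members were raised and 88 were not. The shares off the chromosome were not computed at that limit, and those above belong to the limit of 0.29. After the split, 192 of 266 members were raised and 17 were not, while before it 1 of 16 was raised and 11 were not. The 40 unnamed members had lower medians (0.42 and 0.32), with 19 raised and 9 not.

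The share of raised members rose with the signal. Sorted into 4 bins by level, in the dimmest (7.00 to 9.05) 44 of 81 were raised and the quartile range of the WT1 difference was 0.88 without IL-4. In the brightest bin (12.16 to 18.32) 59 of 81 were raised and this range was 0.43. The WT1 medians of that bin were 0.58 and 0.65. Probe sets of other chromosomes had WT1 medians of 0.14 and 0.02 in the level range of the dimmest bin. In that of the brightest they had 0.03 and 0.02. Their share raised was not computed by level.

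The raised members closest to the median of their class show the typical rise. The 10 nearest were Ap3m1, Gng2, Ccdc25, Cnih1, Sugt1, Tgds, Psme2, Clybl, Ggact and Anxa11. Ap3m1, a subunit of the adaptor complex AP-3 of lysosomal sorting, gave 15.04, 14.39, 14.33 and 14.24 without IL-4. With IL-4 it gave 15.14, 14.43, 14.37 and 14.04. WT1 was above the other clones by 0.72 and 0.86, and the other clones lay close to each other. Gng2, a gamma subunit of heterotrimeric G proteins, gave 13.60, 12.75, 12.76 and 12.86 without IL-4 and 13.17, 12.25, 12.53 and 12.34 with IL-4. Here too the WT1 array was the highest in each treatment, by 0.82 and 0.79 over the mean of the others. Sugt1, a co-chaperone of Hsp90, gave 12.30, 11.82, 11.34 and 11.34 without IL-4 and 12.38, 12.05, 11.33 and 11.34 with IL-4, with WT2 between WT1 and the KO clones.

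The largest rises were in genes of several functions, among them immune genes. The 10 highest of the 264 members that carry an established gene symbol and were above background on all 8 arrays were Slc7a7, Gpr183, Ppif, Gpr18, Ripk3, Rap2a, Zfp219, Fut11, Obi1 and Chchd1. Slc7a7, a transporter of cationic amino acids, gave 11.05, 7.93, 9.08 and 9.74 without IL-4, and 10.61, 7.36, 9.14 and 9.02 with IL-4. The clones differed widely among themselves, with WT2 at the bottom, and without WT2 in the reference the mean WT1 difference of 2.12 became 1.59. Gpr183, a receptor for oxysterols that guides immune cell migration, gave 13.23, 9.84, 11.20 and 11.06 without IL-4 and 14.66, 13.05, 13.58 and 13.18 with IL-4. WT1 was highest in both treatments, by 2.53 and 1.39 over the mean of the others, and WT2 was lowest. Its neighbour on the chromosome, the receptor gene Gpr18, gave 11.50, 10.00, 10.09 and 10.36 without IL-4 and 11.82, 9.39, 10.58 and 10.21 with IL-4. WT2 was lowest there too. Ripk3, the kinase of necroptosis, gave 12.65, 10.90, 11.33 and 11.34 without IL-4 and 12.43, 10.90, 11.24 and 11.35 with IL-4, so that each WT1 array lay over 1 log2 unit above the next clone. Ppif, the mitochondrial cyclophilin of the permeability transition, was above the others by 1.76 and 1.72. Chchd1, a protein of the mitochondrial ribosome, gave 10.53, 9.30, 9.50 and 9.22 without IL-4 and 10.89, 9.48, 9.40 and 9.30 with IL-4. Zfp219, a zinc finger gene, was above by 2.16 without IL-4 and by 0.56 with it.

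**Figure D4:**
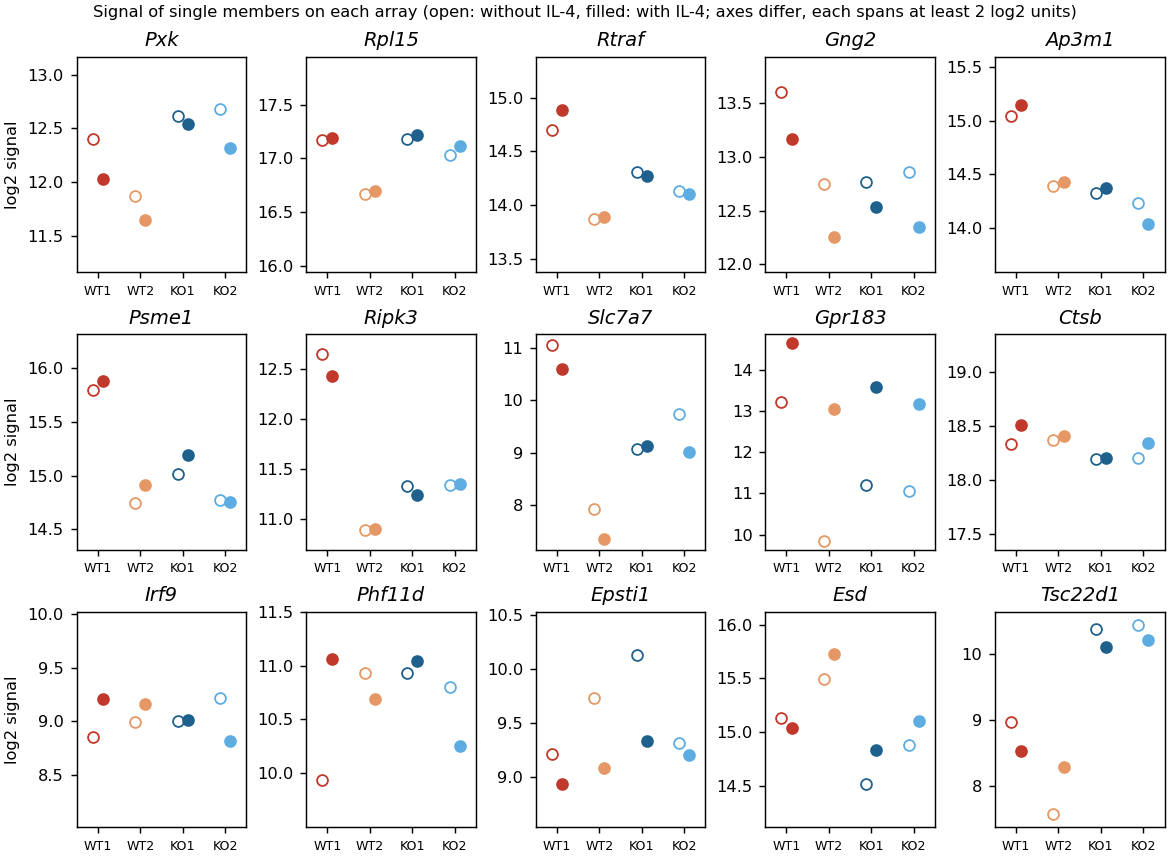
Log2 signal (y axis, a different range in each panel) of 15 members on each of the 8 arrays, by clone (x axis), with open points for cells without IL-4 and filled points for cells with IL-4. Gng2, Ap3m1 and Psme1 show the usual rise of WT1, Ripk3, Slc7a7 and Gpr183 a larger one, and in Ctsb, Irf9, Epsti1, Esd and Tsc22d1 WT1 does not stand above the other clones in both treatments.

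The 17 members after the split that were not raised included a lysosomal protease, interferon-linked genes and genes of several other functions. Ctsb, which encodes the lysosomal protease cathepsin B, was the brightest member. It gave 18.33, 18.37, 18.19 and 18.21 without IL-4, and 18.51, 18.41, 18.21 and 18.34 with IL-4. WT1 lay 0.08 and 0.19 above the mean of the other clones. Whether the probe set still responds in proportion at this signal was not tested. Tsc22d1, a gene known to respond to transforming growth factor beta, gave 8.97, 7.57, 10.37 and 10.43 without IL-4 and 8.52, 8.28, 10.09 and 10.21 with IL-4. Both WT clones were below both KO clones, and WT2 was lower than WT1. Arhgap22, a GTPase-activating protein of Rac, was at −1.13 with IL-4 and gave 8.81, 9.14, 8.65 and 8.67 without it. Tnnc1, a troponin C gene, was at −0.42 and −0.29, Rnase6, an antimicrobial ribonuclease, at −0.46 and 0.16, and Trim52 at −0.99 and 0.08. The gene 2610528A11Rik had the lowest WT1 difference of all members, at −2.15 and −1.73, and was above background on 5 of the 8 arrays. Among members outside the rule, named after their values were seen, the esterase gene Esd gave 15.13, 15.50, 14.52 and 14.88 without IL-4 and 15.04, 15.72, 14.84 and 15.11 with IL-4, with WT2 highest. Nr1d2, a nuclear receptor of the circadian clock, was lower in WT1 (−0.51 and −0.60) and lies before the split, as does Oxsm (−0.51 and 0.05).

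Interferon-linked genes had a lower WT1 median than the other lists of the chromosome in both treatments. Of 11 listed, 10 passed the level minimum, and their WT1 median was 0.08 in cells without IL-4 and 0.37 in those with it, with 4 raised, 3 not raised and 3 mixed. Of the 4 raised, Psme1 and Psme2 encode the activator PA28 of the proteasome. Psme1 gave 15.79, 14.75, 15.02 and 14.77 without IL-4, and 15.88, 14.91, 15.19 and 14.75 with IL-4, a rise of 0.95 and 0.93. Irf9, the DNA-binding subunit of the complex ISGF3 that acts on the element printed above, lies 2 members after Psme2 in the order of the chromosome. It gave 8.85, 8.99, 9.01 and 9.22 without IL-4 and 9.20, 9.16, 9.01 and 8.82 with IL-4. WT1 was the lowest clone without IL-4 and the highest with it, with the clones close to each other. Epsti1, an interferon-induced gene, gave 9.21, 9.73, 10.13 and 9.32 without IL-4 and 8.94, 9.08, 9.33 and 9.20 with IL-4. WT1 was lowest in both treatments.

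In the run of Phf11 genes the WT1 difference without IL-4 was −0.29 for Phf11a, −0.15 for Phf11b and −0.95 for Phf11d, and 0.48 for Phf11c. With IL-4 it was 0.34, 0.29, 0.40 and 0.53. Phf11d gave 9.94, 10.93, 10.93 and 10.80 without IL-4, and 11.06, 10.69, 11.04 and 10.26 with IL-4. The low value was that of the 1 array of WT1 without IL-4. The genes on both sides of this run, Rcbtb1 and Cab39l, were raised (1.00 and 0.50, 0.86 and 0.64).

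Interferon genes of other chromosomes were also measured. In a list of 25 added after the data were seen, 14 genes passed the level minimum. Their WT1 median was −1.77 in cells without IL-4 and −0.94 in those with it, and that of WT2 was 0.98 and 0.78. In WT1 all 14 were not raised and 11 were lower in both treatments, against 6.87% of probe sets off the chromosome. Usp18 was at −3.30 and −2.56 and Irf7 at −3.70 and −3.40 in WT1, both named for their low values. Of the interferon-linked members of chromosome 14, 5 of 10 were above 0 in WT1 without IL-4 and 9 of 10 with it. Over all members these shares were 91.0% and 86.3%, and over the probe sets of other chromosomes 61.3% and 51.2%. Of the 14 interferon genes off the chromosome, 0 and 1 were above 0. The part of these 14 genes in the level of the interferon-linked members was not tested.

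Over all members 65.8% were raised, and the counts of the other lists are read against that share. Of the 22 cell cycle, chromatin and DNA repair genes measured at the level minimum, 18 were raised and none was called not raised, with WT1 medians of 0.93 and 0.86. Dlgap5, a protein of the mitotic spindle, gave 8.69, 6.90, 7.48 and 7.51 without IL-4 and 8.22, 6.61, 6.90 and 7.72 with IL-4. Rnaseh2b, a subunit of ribonuclease H2, was above the others by 1.72 and 1.13 and above background on 7 of the 8 arrays, and Top2b, a topoisomerase gene before the split, by 0.17 and 0.34. Beside this, cell cycle genes of other chromosomes (19 at the level minimum, a list added after the data were seen) had medians of 0.99 and 0.29 in WT1 and of −1.57 and −0.94 in WT2. Their part in the level of the listed chromosome 14 genes was not tested.

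Mitochondrial genes were raised in 14 of 17 (medians 0.76 and 0.65), and both that were not raised, Pdhb and Oxsm, lie before the split. Of 16 genes of protein synthesis and the proteasome, 13 were raised (0.62 and 0.80). Both of this list that were not raised, Rpl15 and the proteasome subunit gene Psmd6 (0.27 and −0.04), also lie before it. The split was set by the WT1 values of these and the other placed members, so these places are a description. Mrpl52, of the mitochondrial ribosome, was at 1.29 and 1.22. Of 14 lysosome, autophagy and membrane traffic genes, 10 were raised (0.70 and 0.76), and Ctsb was the 1 not raised. Ap1g2, an adaptin of the trans-Golgi, was at 1.33 and 1.06, while Rab2b, a small GTPase, was at 1.92 without IL-4 and 0.11 with it. Of 20 macrophage and immune genes, 12 were raised (0.79 and 0.61), 1 was not and 7 were mixed, among them the amino acid transporter gene Slc7a8 (0.55 and −0.43).

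**Figure D5:**
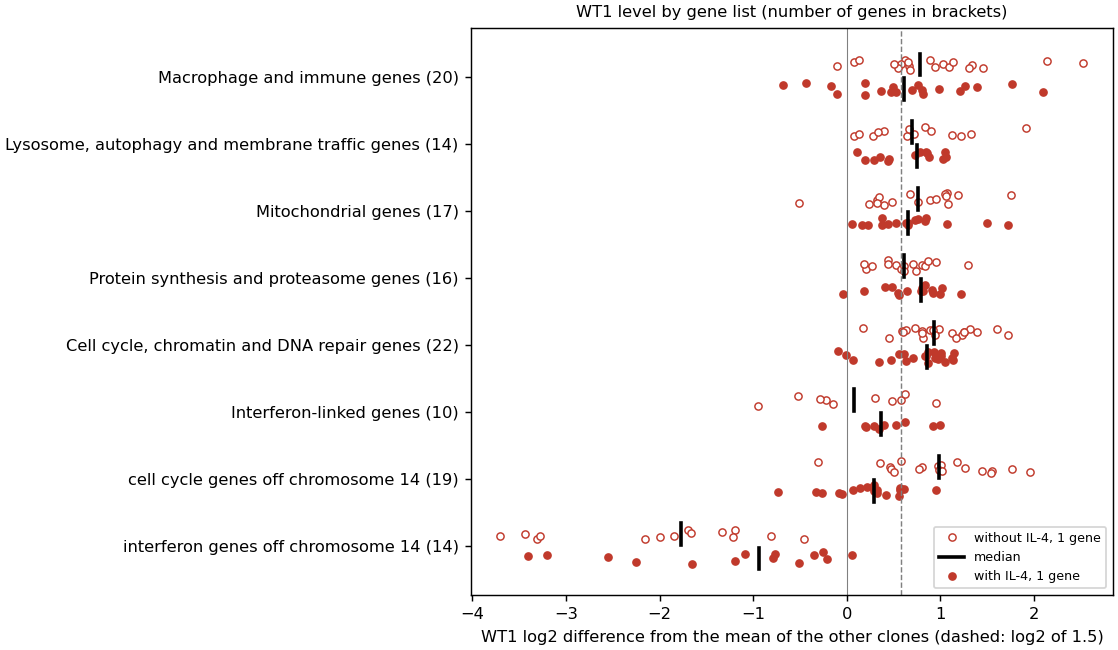
Log2 difference of WT1 from the mean of the other 3 clones (x axis) for each gene of 6 lists of chromosome 14 and 2 lists of other chromosomes (y axis), without IL-4 (open) and with IL-4 (filled), with list medians as bars. The medians of the chromosome 14 lists lie between 0.61 and 0.93, other than the interferon-linked list at 0.08 and 0.37, and the interferon genes of other chromosomes lie at −1.77 and −0.94.

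IL-4 was not used to choose the members, so its effect was tested, by limma over all 22206 probe sets. No member passed an adjusted p of 0.05 in WT cells (0.036% of all probe sets passed), in KO cells (0.0315%) or over both genotypes (0.167%). Before adjustment, 12, 8 and 18 members had a p under 0.05 (against 3.85%, 2.77% and 4.61% of all probe sets), and the lowest adjusted p of a member from limma was 0.754, 0.461 and 0.105. The difference of the IL-4 effects between the genotypes also gave no call among members or over all probe sets (0%, limma), with 2 members at an unadjusted p under 0.05 (1.52% of all probe sets) and a lowest adjusted p of 1.00. With the clone as a block it again gave none. The fit of group means, which gave the values above, has no term for the clone. Differences between clones, for which the chromosome was selected, therefore enter its spread and can make a call harder. Whether they did so more among the members than elsewhere was not tested. With the clone as a fixed block, the lowest adjusted p of a member from limma was 0.144 in WT cells and 0.187 in KO cells. Over both genotypes it was 0.0169, in the 1 member that passed (0.576% of all probe sets did). The median IL-4 change of the members in the 4 clones was −0.05, 0.08, 0.02 and −0.02. That of the probe sets off the chromosome was −0.07, 0.11, 0.03 and −0.05.

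A few members changed with IL-4 in one fit or another, and are named after their values were seen. Gpr183 went from 13.23, 9.84, 11.20 and 11.06 without IL-4 to 14.66, 13.05, 13.58 and 13.18 with it. It was higher with IL-4 in 4 of 4 clones, with a log2 fold change of 2.29 ± 0.66 (SE, adjusted p = 0.591 from limma). It passed when a fixed block set each array against the other one of its clone (adjusted p = 0.0169 from limma, 0.576% of all probe sets called). The clones without IL-4 differed by more than 3 log2 units in this gene. Acod1, the enzyme that makes itaconate, gave 15.87, 16.32, 15.69 and 15.92 without IL-4 and 17.38, 16.89, 16.94 and 16.83 with IL-4. All 4 arrays with IL-4 lay above all 4 without, with a log2 fold change of 1.06 ± 0.18 (SE, adjusted p = 0.105 from limma). Acod1 passed with a trended and robust variance (adjusted p = 0.0328 from limma), and the share of all probe sets called in that fit was not computed. Tmem273 changed by 1.46 (adjusted p = 0.165 from limma), with −0.11 in WT1 and 1.85 to 2.17 in the other clones. Scel changed by −1.99 (adjusted p = 0.562 from limma) and was lower in 4 of 4 clones, by −3.56 in WT1 and −1.07 in KO2.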

How the data were processed

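RNA of 4 RAW264 clones was hybridized to 8 mouse Clariom S arrays. The authors normalized the raw files by SST-RMA in the Transcriptome Analysis Console (RMA in the submitters' processing notes). They deposited linear intensities, of which the log2 was taken here. Of 28846 rows, 6640 were controls. Gene symbols came from the platform annotation, and gene order from RefSeq (GRCm38.p6). The genome build of the probe sets was not stated, so no positions are printed other than those of the Phf11 promoter stretches, taken from RefSeq.

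IL-4 effects were tested by limma 3.58.1 (R 4.3.3) as contrasts of 4 group means, with Benjamini-Hochberg adjustment over 22206 probe sets. The tests were checked on simulated arrays with planted IL-4 changes, drawn without differences between clones, so the check does not cover such differences. Arrays of one clone were matched through the replicate numbers of the labels, which the study's own array names give as clones. The fit of group means did not use this pairing, and a clone block did. Over all probe sets, deviations of the arrays of one clone from their group means had a correlation of 0.354 (WT) and 0.161 (KO). Alternatives were a clone block, quantile normalization, centring, level filters, a trended and robust variance and leaving out each clone. The small number of arrays limits the precision.

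Named genes were the 10 highest and 10 lowest in WT1 of 264 members with an established symbol that were above background on all 8 arrays, the 10 nearest the median of the raised members, the extremes of each list, the genes at the split, and those at the level minimum. Members, lists and rules were chosen with earlier results of these data known.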

Additional observations from a re-analysis of the deposited data

How the results depend on the processing

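The median WT1 difference over the members without IL-4, 0.69, was 0.60 after quantile normalization, 0.55 after centring on the probe sets of other chromosomes, 0.73 over the 284 probe sets placed on chromosome 14 by RefSeq, and 0.70 to 0.71 without each other clone in the reference. With no level minimum, 922 probe sets entered, most of them dim, which gave medians of 0.22 and, with IL-4, 0.10, with 412 probe sets not raised. With IL-4 it was 0.56 to 0.63 without each other clone. A limit of log2 of 1.5 gave 128 raised and 88 not raised members. The shares off the chromosome were not computed for this limit or without a level minimum. By the mean of both treatments the split of WT1 lay after Ube2e1 under each alternative of scaling, level filter, reference and member rule run for it, and it was not sought with no level minimum.

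The median of KO minus WT ran from −0.71 to 0.018 without IL-4 and from −0.63 to −0.06 with IL-4 when a clone was left out. It turned in sign to 0.018 without WT1, where the probe sets of other chromosomes had a median of 0.11. Of IL-4 calls among members, the clone as a fixed replicate block gave 0 in WT, 0 in KO, 1 over both genotypes (Gpr183) and 0 for the difference of the effects, and a random block gave 0 in each. A trended and robust variance gave 1 over both genotypes (Acod1). Leaving out each clone gave 0 to 1 in WT, 0 to 3 in KO, 0 to 4 over both and 0 for the difference. Without WT1 Gpr183 (2.73, adjusted p = 0.00176 from limma) and Tmem273 (1.95, adjusted p = 0.00669) passed over both genotypes. Without WT2 it was Gpr183 (1.84, adjusted p = 0.00846), Acod1 (1.29, adjusted p = 0.024), Scel (−2.59, adjusted p = 0.00633) and Pbk. A genotype with 1 clone left was assumed to vary like the other groups. Of 46 named members, 2 turned in the sign of their mean WT1 difference, Slc7a8 to −0.0065 without WT2 (range −0.0065 to 0.13 over the clones left out) and Scel to 0.29 without KO1 and 0.24 without KO2 (range −1.32 to 0.29).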
